A study of Mus musculus with 12 samples.

Results

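Fibrous and type VI collagens were described across 12 libraries of mouse chondrocytes. The members were chosen by gene name: Col1a1, Col1a2, Col3a1, Col5a1, Col5a2, Col6a1, Col6a2, Col6a3, Col12a1 and Col14a1. All 10 were found, each once, among the 17536 genes of the deposited expression values. The cells came from 5-day-old C57BL/6 mice by the labels, C57BL/6J by the study's methods. R3-cKO mice carried Col2a1-Cre and Runx3 fl/fl, and their R3-Cntl littermates carried Runx3 fl/fl with no Cre. Recombination in R3-cKO mice was driven by the Col2a1 promoter and so depended on cells that use, or once used, that promoter. In each genotype, an early enzyme step on the cleaned ends of femur and tibia gave the superficial zone (SFZ) cells, and a longer second step on what was left gave the deeper zone (DZ) cells. Both were then grown as monolayers on fibronectin-coated dishes before RNA was taken. There were 3 libraries in each of the groups R3-Cntl SFZ, R3-cKO SFZ, R3-Cntl DZ and R3-cKO DZ. The unit was inferred to be FPKM (read fragments scaled to transcript length and library size), which if right allows levels of different genes to be set side by side. The depth behind each value is unknown, as no read counts entered the work.

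Collagens are trimers whose chains carry long stretches in which glycine recurs with a strict period. Types I, III and V assemble into banded fibrils, with type I making up most of the fibril in skin, tendon and bone, type III joining it in compliant tissues and type V helping to start the fibril and set its width. Type VI collagen forms beaded microfilaments, which in cartilage lie in the shell of matrix around each chondrocyte, and types XII and XIV are fibril-associated collagens with interrupted helices that decorate the surface of fibrils. Hyaline cartilage is built mainly on type II fibrils, and type I is a usual product of perichondrium, tendon, bone and chondrocytes that lose their phenotype in culture.

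In the mm9 annotation (GENCODE vM1) the members lay on 7 chromosomes. Col3a1 (chr1:45368383-45406551, plus strand) and Col5a2 (chr1:45431166-45560127, minus strand) were separated by 24614 bp. Col6a2 (chr10:76058507-76086375) and Col6a1 (chr10:76171537-76188913), both on the minus strand, were separated by 85161 bp. The others were Col1a1 (chr11:94797538-94814356, plus), Col1a2 (chr6:4454814-4491543, plus), Col5a1 (chr2:27741945-27895034, plus), Col6a3 (chr1:92663435-92740529, minus), Col12a1 (chr9:79446798-79566638, minus) and Col14a1 (chr15:55139305-55352358, plus).

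The coding sequences separated the fibril formers from the rest. In the longest coding transcript of each gene, runs were counted in which a codon opening with GG, the pair shared by all glycine codons, recurred at every 3rd position for at least 6 triplets. The longest run held 338 triplets in Col1a1, 339 in Col1a2, 344 in Col3a1, 338 in Col5a1 and 339 in Col5a2. It held 87 triplets in both Col6a1 and Col6a2, 45 in Col6a3, and 32 in both Col12a1 and Col14a1. Such runs covered 77.1% of the codons of Col1a2 at the high end and 7.63% of the codons of Col12a1 at the low end.

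Promoter sequence is shown because several members differed between zones in the same direction. RefSeq promoter entries (GRCm38.p6) were matched by symbol for 6 of the 10 members, with 7 windows in all, since Col6a2 had more than 1 start. Col1a1, Col5a2, Col12a1 and Col14a1 had no entry. In the bases before each start, 4 patterns were searched on both strands, and capitals in the sequences mark every match. TATAAA was present in 12.4% of the 32851 windows of all genes and in Col3a1 alone among the members. CCAAT was present in 33.8% of all windows and in Col1a2, outside the stretch printed. GGGCGG was present in 32.7% of all windows and in Col1a2, Col5a1 and both Col6a2 windows, and of the 3 hits in the Col6a2 window that is not printed 2 overlapped each other. TGTGGT or TGCGGT, the core letters of the RUNX motif, was present in 18.6% of all windows and in none of the 7. Each stretch ends where the first annotated transcript of the gene begins, and a match of letters says nothing of binding. The stretches, 5′ to 3′ on the strand of the gene, were chr1:45311288-45311537 (plus) for Col3a1, chr6:4505368-4505492 (plus) for Col1a2, chr2:27886175-27886424 (plus) for Col5a1, chr10:76623631-76623880 (minus) for Col6a2 and chr10:76726169-76726294 (minus) for Col6a1.
Col3a1: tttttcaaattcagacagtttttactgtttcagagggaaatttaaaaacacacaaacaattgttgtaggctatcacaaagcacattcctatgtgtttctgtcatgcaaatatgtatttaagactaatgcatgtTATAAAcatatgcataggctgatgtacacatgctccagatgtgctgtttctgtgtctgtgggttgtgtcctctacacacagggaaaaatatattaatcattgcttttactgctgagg
Col1a2: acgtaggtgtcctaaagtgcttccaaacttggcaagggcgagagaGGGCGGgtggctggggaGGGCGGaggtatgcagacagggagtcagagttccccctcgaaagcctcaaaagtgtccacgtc
Col5a1: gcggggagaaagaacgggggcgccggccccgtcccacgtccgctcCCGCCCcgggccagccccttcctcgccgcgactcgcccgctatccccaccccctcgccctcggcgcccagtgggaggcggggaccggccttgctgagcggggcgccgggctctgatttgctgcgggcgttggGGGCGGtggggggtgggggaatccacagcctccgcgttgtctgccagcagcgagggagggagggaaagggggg
Col6a2: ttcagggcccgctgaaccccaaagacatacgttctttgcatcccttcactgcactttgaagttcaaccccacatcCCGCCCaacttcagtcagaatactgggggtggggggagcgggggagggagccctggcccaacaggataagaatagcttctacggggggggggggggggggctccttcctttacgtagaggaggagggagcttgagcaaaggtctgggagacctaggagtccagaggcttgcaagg
Col6a1: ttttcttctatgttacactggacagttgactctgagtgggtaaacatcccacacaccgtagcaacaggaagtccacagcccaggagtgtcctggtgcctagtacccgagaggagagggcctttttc

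GC content before the start was 35.2% in Col3a1 and 76.4% in Col5a1, the lowest and the highest among the windows of the members.

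Runx3, the targeted gene, was read first as a check of the labels. It had FPKM of 10.7, 5.98 and 6.65 in libraries 1, 2 and 3 of R3-Cntl SFZ, and of 11.8, 9.07 and 3.42 in those of R3-cKO SFZ. Across DZ libraries the values were 12.7, 12.7 and 7.66 FPKM (R3-Cntl) and 16.0, 12.7 and 8.14 FPKM (R3-cKO). The genotypes overlapped in both zones, and the gene was not measurably lower in R3-cKO. The log2 difference, R3-cKO minus R3-Cntl on log2(FPKM + 1), was -0.04 (SE 0.43) in SFZ and 0.13 (SE 0.28) in DZ. The value covers the whole gene, and reads of the floxed part were not separated. Genotype effects are therefore given for the libraries labelled R3-cKO. Ddx3y, a Y-linked gene, measured 10.7, 0.02 and 0.01 FPKM in libraries 1, 2 and 3 of R3-cKO SFZ, and 12.7, 0 and 0 FPKM in those of R3-cKO DZ. It lay between 4.96 and 21.1 FPKM in the 6 R3-Cntl libraries, so that 1 of 3 R3-cKO libraries in each zone carried it. It was thus partly confounded with genotype, and the parts of each in a difference were not separated here, whereas each zone held the same number of libraries with and without it.

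Markers of the labelled cell type were present in every library. Col2a1, the chain of type II collagen, stood at 9229, 3241 and 6728 FPKM across the R3-Cntl SFZ libraries, and at 8275, 5019 and 3049 across the R3-cKO SFZ libraries. The R3-Cntl DZ libraries stood at 22791, 14219 and 17525 FPKM, those of R3-cKO DZ at 15594, 11248 and 17839. Every DZ library was above every SFZ library. Prg4, which encodes the lubricin of the articular surface, measured 22.2, 8.38 and 7.13 FPKM in R3-Cntl SFZ and 1.39, 1.22 and 1.47 FPKM in R3-Cntl DZ libraries. In the libraries labelled R3-cKO it measured 6.95, 2.47 and 2.13 FPKM in SFZ and 5.72, 1.32 and 2.14 FPKM in DZ, so that the zones overlapped there.

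Comparing the zones asks how messages of these collagens differed between cultured cells of the early enzyme step (SFZ) and of the second step (DZ). Type I and the fibril-associated type XIV were many times higher in SFZ than in DZ libraries. Type III was higher with a ratio of means of 3.79, and Col5a1 of type V was moderately higher. Col12a1 of type XII was higher, and Col6a1 and Col6a2 of type VI slightly so, in calls that other scalings did not keep. Col5a2 and Col6a3 did not pass the test. Together the 10 members made up 1.29, 2.32 and 1.46% of all FPKM in SFZ of R3-Cntl, against 1.32, 1.30 and 2.97% in SFZ of R3-cKO. In DZ the shares were 0.236, 0.428 and 0.841% in R3-Cntl and 0.356, 0.486 and 0.615% in R3-cKO libraries. No DZ library reached the lowest SFZ library. The cartilage collagens of types II, IX, X and XI held 1.09 to 3.14% of all FPKM in SFZ and 3.56 to 7.35% in DZ libraries. These are bulk samples, in which fewer cells of a type and less RNA per cell cannot be told apart.

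Col1a1, the main chain of type I collagen, reached 1859, 3706 and 2112 FPKM in SFZ from controls, and 1937, 1849 and 4793 in SFZ from R3-cKO mice. DZ levels came to 24.4, 241.7 and 961 FPKM for controls, with 52.8, 244 and 576 for R3-cKO. The lowest SFZ library was above the highest DZ library, and library 1 was the lowest of its group in both DZ groups. The range was wide within DZ, where the highest library was 39.4 times the lowest, against 2.59 times within SFZ. Col1a1 per 100 FPKM of Col2a1 was 20.1, 114 and 31.4 in SFZ of R3-Cntl, against 23.4, 36.8 and 157 in SFZ of R3-cKO. The same quantity was 0.107, 1.70 and 5.48 in R3-Cntl DZ and 0.338, 2.17 and 3.23 in R3-cKO DZ libraries. Col1a1 thus exceeded Col2a1 in 2 of 12 libraries, R3-Cntl SFZ library 2 and R3-cKO SFZ library 3.

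Col1a2, which encodes the partner chain of Col1a1, followed it closely. It was found at 1519, 2983 and 1761 FPKM (R3-Cntl SFZ) and at 1636, 1567 and 4713 FPKM (R3-cKO SFZ). Deeper-zone FPKM was 58.8, 249.7 and 899 (R3-Cntl) and 106.3, 210.0 and 527 (R3-cKO). The zones did not overlap. Type I trimers hold more of the Col1a1 chain than of the Col1a2 chain, and the ratio of the messages was 1.22 ± 0.0216 (SD, n = 3) in R3-Cntl SFZ and 1.13 ± 0.0953 in R3-cKO SFZ. In DZ the ratio was 0.817 ± 0.352 in R3-Cntl and 0.918 ± 0.367 in R3-cKO, and in DZ libraries 1 it was 0.415 and 0.496, the lowest of the 12.

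Col3a1, the single chain of type III collagen, had FPKM of 478, 815 and 443 in libraries 1, 2 and 3 of R3-Cntl SFZ, and of 459, 334 and 969 in those of R3-cKO SFZ. For DZ, the control libraries gave 29.0, 99.6 and 259 FPKM, the R3-cKO libraries 45.2, 112 and 377. R3-cKO DZ library 3 was above R3-cKO SFZ library 2, so the zones overlapped in R3-cKO and not in R3-Cntl. The ratio of Col3a1 to Col1a1 was 0.229 ± 0.0249 (SD, n = 3) in R3-Cntl SFZ, 0.207 ± 0.0286 in R3-cKO SFZ, 0.624 ± 0.495 in R3-Cntl DZ and 0.657 ± 0.198 in R3-cKO DZ. Relative to Col1a1, Col3a1 was highest in the DZ libraries 1, at 1.19 in R3-Cntl and 0.856 in R3-cKO.

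Of the type V chains, Col5a1 stood at 193, 306 and 250.4 FPKM across the R3-Cntl SFZ libraries, and at 224, 172 and 259.6 across the R3-cKO SFZ libraries. Across DZ libraries the values were 76.1, 107 and 156 FPKM (R3-Cntl) and 96.9, 91.6 and 127 FPKM (R3-cKO). All 6 SFZ libraries were above all 6 DZ libraries, with a ratio of means of 2.21 in R3-Cntl and 2.08 in R3-cKO. Col5a2, the second chain of the type V trimer, reached 215, 451 and 388 FPKM in SFZ from controls, and 298, 383 and 382 in SFZ from R3-cKO mice. The R3-Cntl DZ libraries stood at 85.0, 255 and 213 FPKM, those of R3-cKO DZ at 337, 359.8 and 266. Here the zones overlapped in both genotypes, and the ratio of means was 1.91 in R3-Cntl and 1.10 in R3-cKO. The ratio of Col5a1 to Col5a2 was 0.740 ± 0.137 (SD, n = 3) in R3-Cntl SFZ, 0.627 ± 0.157 in R3-cKO SFZ, 0.682 ± 0.242 in R3-Cntl DZ and 0.339 ± 0.119 in R3-cKO DZ.

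Among the type VI chains, Col6a1 had the smallest spread of all members, with a coefficient of variation of 11.9% over SFZ and 15.3% over DZ libraries. It was found at 541, 496 and 416 FPKM (R3-Cntl SFZ) and at 445, 495 and 395 FPKM (R3-cKO SFZ). DZ levels came to 369.6, 367 and 330.1 FPKM for controls, with 379, 417 and 259 for R3-cKO. The zones were apart in R3-Cntl and overlapped in R3-cKO, with ratios of means of 1.36 and 1.27. Col6a2 had FPKM of 427, 403 and 312 in libraries 1, 2 and 3 of R3-Cntl SFZ, and of 331, 391.6 and 277 in those of R3-cKO SFZ. Deeper-zone FPKM was 276, 268 and 217 (R3-Cntl) and 268, 296 and 143 (R3-cKO). R3-cKO DZ library 3 was the lowest of the 12 for both genes, and again the zones overlapped in R3-cKO alone. Col6a3, the longest of these chains, stood at 120.3, 132 and 179.6 FPKM across the R3-Cntl SFZ libraries, and at 102, 165 and 95.1 across the R3-cKO SFZ libraries. For DZ, the control libraries gave 68.7, 110.4 and 74.6 FPKM, the R3-cKO libraries 130.3, 150.1 and 82.2. The zones were apart in R3-Cntl, while in R3-cKO the SFZ mean was 0.998 times the DZ mean.

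The Col6a1 to Col6a2 ratio stayed between 1.23 and 1.81 in all 12 libraries, with group means of 1.28 ± 0.0508 (SD, n = 3) in R3-Cntl SFZ, 1.35 ± 0.0819 in R3-cKO SFZ, 1.41 ± 0.0988 in R3-Cntl DZ and 1.54 ± 0.228 in R3-cKO DZ. Col6a3 was 0.307 ± 0.111 of Col6a1 in R3-Cntl SFZ, 0.268 ± 0.0568 in R3-cKO SFZ, 0.238 ± 0.0585 in R3-Cntl DZ and 0.341 ± 0.0214 in R3-cKO DZ. In no library did Col6a3, whose product joins the other chains in a trimer, reach the level of either.

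Of the fibril-associated collagens, Col12a1 reached 165, 324 and 209 FPKM in SFZ from controls, and 161, 221 and 321 in SFZ from R3-cKO mice. Across DZ libraries the values were 14.3, 79.6 and 188 FPKM (R3-Cntl) and 37.5, 101 and 109.8 FPKM (R3-cKO). R3-Cntl DZ library 3 lay above R3-Cntl SFZ library 1, and the zones were apart in R3-cKO. Col14a1 was the scarcest member, at 22.5, 28.4 and 6.07 FPKM in R3-Cntl SFZ and 16.6, 10.4 and 69.0 FPKM in R3-cKO SFZ libraries. The R3-Cntl DZ libraries stood at 0.34, 0.80 and 2.50 FPKM, those of R3-cKO DZ at 0.13, 0.55 and 1.67. Every SFZ library was above every DZ library, and 4 of the 6 DZ libraries were below 1 FPKM.

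**Figure D1:**
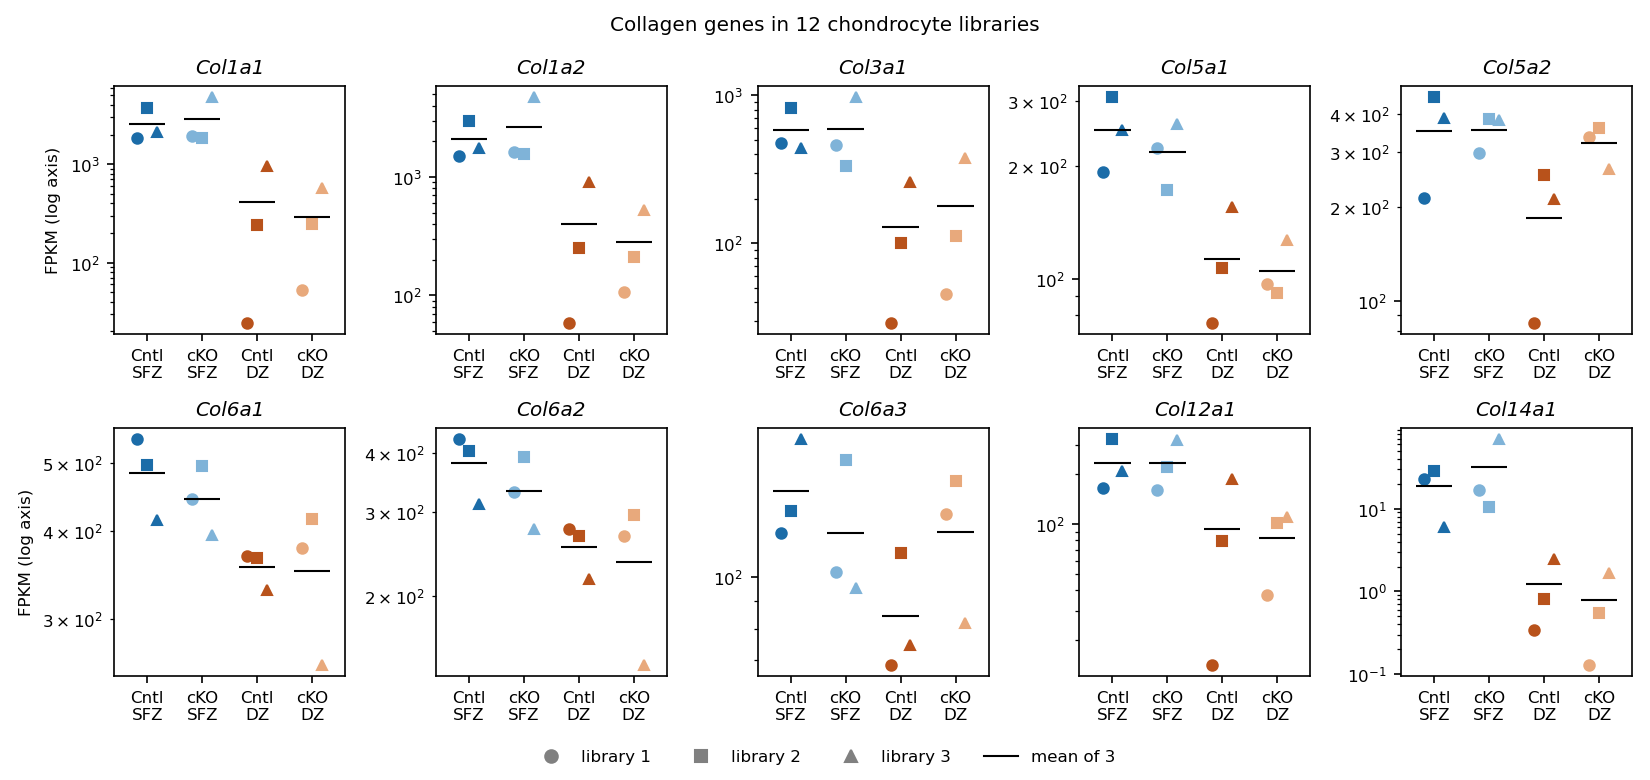
FPKM of each member in the 12 libraries on log axes, with 1 panel per gene, 1 point per library, shapes for library number and lines for means of 3. Col1a1 lies between 1849 and 4793 FPKM in SFZ and between 24.4 and 961 FPKM in DZ, whereas the SFZ and DZ values of Col6a1, 395 to 541 and 259 to 417 FPKM, partly overlap.

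The order of levels differed by zone. In SFZ the means over 6 libraries ran from Col1a1 (2709 FPKM) and Col1a2 (2363) through Col3a1 (583), Col6a1 (465), Col6a2 (357), Col5a2 (353), Col5a1 (234), Col12a1 (233) and Col6a3 (132) to Col14a1 (25.5). The Col14a1 mean was 16.8 FPKM without R3-cKO SFZ library 3. Col6a2 exceeded Col5a2, and Col5a1 exceeded Col12a1, in 3 of 6 libraries each, so these neighbours were not separated. Col3a1 exceeded Col6a1 in 4 of 6 libraries, and the other neighbours were in this order in 6 of 6. In DZ the highest means were those of Col6a1 (353.5 FPKM), Col1a1 (350.1) and Col1a2 (342), followed by Col5a2 (253), Col6a2 (245), Col3a1 (154), Col5a1 (109), Col6a3 (103) and Col12a1 (88.3). Without R3-Cntl DZ library 3 the DZ mean was 228 FPKM for Col1a1 and 230.3 for Col1a2, and Col1a2 was above Col5a2 in 2 of 6 DZ libraries. Each neighbouring pair of this order held in at most 4 of 6 libraries, except that Col12a1 was above Col14a1 (0.998 FPKM) in 6 of 6.

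Over both genotypes, with genotype as a term, 8 of the 10 members rose in SFZ relative to DZ by limma at an adjusted p under 0.05, and no member fell. By the same rule 18.9% of the 11765 genes tested were higher and 4.30% lower in SFZ. Differences are SFZ minus DZ on log2(FPKM + 1), which understates the change of genes near 0 such as Col14a1. The difference was 3.73 (SE 0.80, adjusted p = 0.00874, limma) for Col1a1, 3.20 (SE 0.61, adjusted p = 0.00522) for Col1a2 and 2.34 (SE 0.58, adjusted p = 0.0157) for Col3a1. Col5a1 rose by 1.11 (SE 0.18, adjusted p = 0.00279, limma), Col12a1 by 1.72 (SE 0.52, adjusted p = 0.0363) and Col14a1 by 3.45 (SE 0.50, adjusted p = 0.00163). Among DZ libraries alone Col14a1 was under the filter on low values. Here and within each genotype it entered the test through its SFZ values, which partly fixed the direction of its call. The type VI chains Col6a1 and Col6a2 rose by 0.40 (SE 0.12, adjusted p = 0.0390, limma) and 0.57 (SE 0.18, adjusted p = 0.0396). Col5a2 at 0.57 (SE 0.29, adjusted p = 0.176, limma) and Col6a3 at 0.38 (SE 0.23, adjusted p = 0.242) did not pass. For 4 of 10 members, Col1a1, Col1a2, Col5a1 and Col14a1, every SFZ library was above every DZ library, against 9.71% of all genes tested.

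These values sit on a shift of the whole distribution. The median difference over all genes was 0.14, and 2219 genes were called higher and 506 lower in SFZ. Quantile normalization moved that median to -0.03, with 915 genes called higher and 1237 lower, and median-of-ratios scaling brought it to -0.00 with 1088 higher and 1053 lower. The members' median was 1.42, or 1.28 above that of all genes, and it was 1.37 above it with quantile normalization and 1.26 with median-of-ratios scaling. All 10 members were above 0 and above the median of all genes under each scaling. Col1a1, Col1a2, Col3a1, Col5a1 and Col14a1 passed the test under both scalings, and Col6a1, Col6a2 and Col12a1 under neither. With median-of-ratios scaling Col6a1 was 0.24 (limma adjusted p = 0.169, and 0.00859 to 0.169 over the alternatives), Col6a2 0.40 (0.111, and 0.00534 to 0.111) and Col12a1 1.56 (0.0592, and 0.0127 to 0.0877). The calls of these 3 genes also depended on single libraries: leaving out R3-Cntl SFZ library 1 or 2, R3-Cntl DZ library 2 or R3-cKO SFZ library 2 left 5 members called. P-values here measure the spread between libraries, since the labels do not say that each came from a separate animal. A legend of the study names individual littermates as the source of both zones and does not tie them to library numbers, so the zones may share animals.

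**Figure D2:**
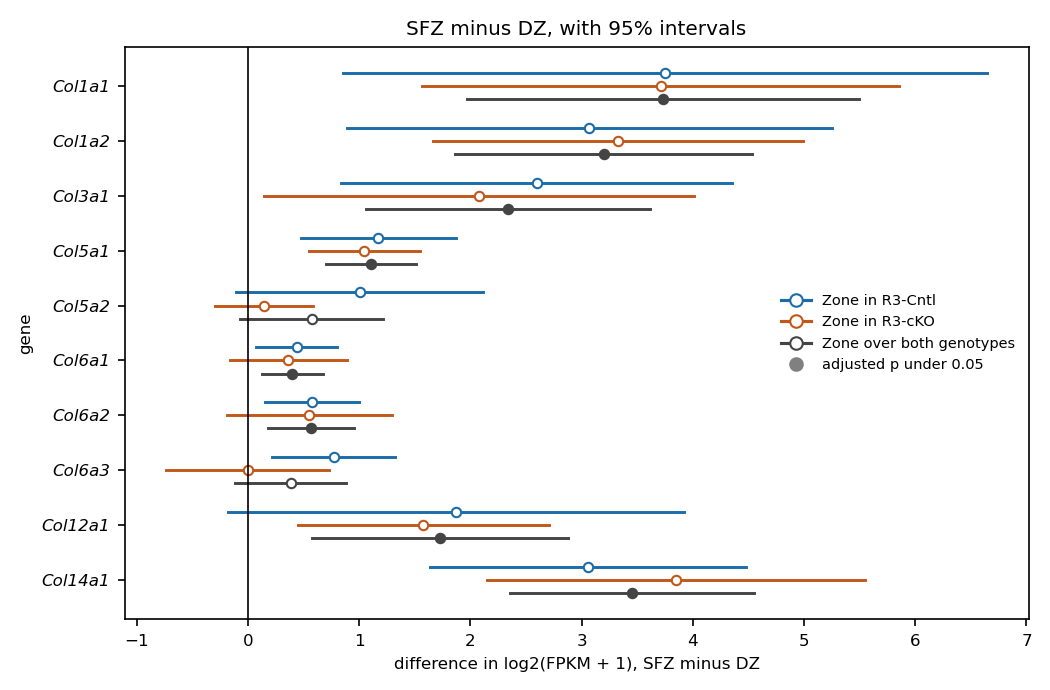
Difference between zones, SFZ minus DZ on log2(FPKM + 1), for each member in each genotype and over both, with 95% intervals as lines and filled points where limma's adjusted p was under 0.05. Over both genotypes the difference runs from 0.38 for Col6a3 to 3.73 for Col1a1, and 8 of the 10 points are filled.

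Within the controls alone the difference of each of the 10 members was above 0, but none passed the adjusted threshold. With the replicate number as a block Col5a1, Col5a2 and Col6a2 passed it, as did 831 of 11336 genes, 681 of them higher. Same-numbered libraries did not pair in this comparison, however. The difference between zones in R3-Cntl was 3.75 (SE 1.21) for Col1a1, 3.07 (SE 0.91) for Col1a2, 2.59 (SE 0.74) for Col3a1, 1.17 (SE 0.29) for Col5a1 and 3.06 (SE 0.60) for Col14a1. For type VI it was 0.44 (SE 0.15) for Col6a1, 0.58 (SE 0.18) for Col6a2 and 0.77 (SE 0.23) for Col6a3, and for the others 1.005 (SE 0.47) for Col5a2 and 1.87 (SE 0.86) for Col12a1. Without R3-Cntl DZ library 1 it was 2.34 for Col1a1, 0.52 for Col5a2 and 0.86 for Col12a1, and with median-of-ratios scaling 0.24 for Col6a1 and 0.38 for Col6a2. By limma 0 of 10 members had an adjusted p under 0.05, where 1.09% of 11336 genes were called higher in SFZ, and the smallest adjusted p among the members was 0.0594, for Col14a1. At an unadjusted p under 0.05, 8 members were higher, all but Col5a2 and Col12a1, against 22.4% of all genes. For the same 8, the groups did not overlap, against 26.5% of all genes. The number of genes called was itself unsteady, at 140 with all 6 libraries, 798 in 1 model of all 12 libraries, where the members Col5a1 and Col14a1 were among them, 505 without R3-Cntl SFZ library 1 and 3 or 4 without R3-Cntl SFZ library 3 or R3-Cntl DZ library 3. It was 0 without R3-Cntl SFZ library 2 or R3-Cntl DZ library 1 or 2, and quantile normalization gave 1 gene, called higher, and median-of-ratios scaling 13 higher and 4 lower.

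Among libraries labelled R3-cKO the difference was above 0 for 9 of the 10 members. The difference between zones was 3.71 (SE 0.89) for Col1a1, 3.33 (SE 0.69) for Col1a2, 2.08 (SE 0.80) for Col3a1, 1.05 (SE 0.21) for Col5a1, 1.58 (SE 0.46) for Col12a1 and 3.85 (SE 0.70) for Col14a1. It was 0.14 (SE 0.18) for Col5a2, 0.36 (SE 0.22) for Col6a1, 0.55 (SE 0.31) for Col6a2 and -0.00 (SE 0.30) for Col6a3. Without R3-cKO DZ library 3 it was 0.16 for Col6a1, 0.23 for Col6a2 and 0.014 for Col5a2, and without R3-cKO DZ library 1 it was 1.36 for Col3a1. With median-of-ratios scaling it was 0.23 for Col6a1 and 0.011 for Col5a2. By limma 0 of 10 members had an adjusted p under 0.05, where 0.0176% of 11336 genes, 2 in number, were called higher. At an unadjusted p under 0.05, 6 members were higher (Col1a1, Col1a2, Col3a1, Col5a1, Col12a1 and Col14a1), against 11.1% of all genes. For these but Col3a1 the groups did not overlap, which makes 5 members against 16.8% of all genes. Here libraries with the same number deviated together, and with the replicate number as a block 5 members rose (Col1a1, Col1a2, Col5a1, Col12a1 and Col14a1) among 352 genes called, 285 of them higher.

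Comparing the genotypes asks whether the collagens of either zone differed in the libraries labelled R3-cKO. No member passed the test in SFZ or in DZ. In SFZ the differences, R3-cKO minus R3-Cntl, lay between -0.28 (SE 0.26) for Col6a3 and 0.50 (SE 0.82) for Col14a1. Col1a1 was at 0.08 (SE 0.47), with a 95% interval from -1.05 to 1.21, and Col6a1 at -0.12 (SE 0.17), with an interval from -0.52 to 0.28. With 1 library left out Col6a3 ran from -0.52 to -0.11 and Col6a1 from -0.22 to -0.035, and Col1a1 and Col14a1 crossed 0. By limma 0 of 10 members and 0% of 11537 genes had an adjusted p under 0.05, and at an unadjusted p under 0.05 there were 0 members and 0.295% of all genes. The genotypes overlapped for all 10 members, while 1.45% of all genes were higher and 0.953% lower in R3-cKO with no overlap. These intervals are wide for type I collagen, and a p above the threshold does not show that levels were equal.

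In DZ Col5a2 was the 1 member whose genotypes did not overlap. Its R3-cKO libraries, at 337, 359.8 and 266 FPKM, were all above the R3-Cntl libraries, at 85.0, 255 and 213 FPKM, with means of 321 ± 49.0 and 184 ± 88.4 FPKM (SD, n = 3). The difference was 0.93 (SE 0.41, 95% interval -0.05 to 1.91) and did not pass limma's test (adjusted p = 0.999). It was 0.45 without R3-Cntl DZ library 1. That makes 1 of the 9 members tested in the higher direction, against 5.26% of all genes, and 0 in the lower direction, against 2.78%. Col6a3 was at 0.50 (SE 0.28), or 0.32 to 0.75 with 1 library left out, and Col1a1, Col1a2, Col3a1 and Col12a1 had SEs from 0.92 to 1.43. Col14a1 was under the filter on low values in this comparison. By limma 0 of 9 members and 0% of 11091 genes had an adjusted p under 0.05, and at an unadjusted p under 0.05 there were 0 members and 3.64% of all genes. Same-numbered libraries deviated together here, and 3 members, Col3a1, Col5a2 and Col6a3, were higher in R3-cKO in 3 of 3 such pairs, as were 26.6% of all genes. With the replicate number as a block these 3 had an unadjusted p under 0.05, at 0.44 (SE 0.11), 0.93 (SE 0.33) and 0.50 (SE 0.16), all higher, as did 1830 of all genes, 1278 of them (11.5% of those tested) higher, while 0 members and 0 genes passed limma's adjusted test. In the same pairs the summed markers of fibroblasts, smooth muscle and skeletal muscle were also higher in R3-cKO in 3 of 3. Their most abundant genes were Ly6a, Acta2 and Acta1, and not every gene was higher. Pdgfra of the fibroblast list was 0.95, 4.65 and 18.5 FPKM in R3-Cntl DZ and 1.30, 8.13 and 9.50 in R3-cKO DZ. Pdgfrb of the smooth muscle list was 31.2, 27.7 and 36.2 FPKM in R3-Cntl DZ and 29.6, 29.4 and 30.9 in R3-cKO DZ. Macrophage sums were lower in 3 of 3. Chondrocyte sums were lower in pairs 1 and 2 and nearly equal in pair 3, at 26973 (R3-Cntl) and 26963 FPKM (R3-cKO). The part of such cells in the members' differences was not tested.

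**Figure D3:**
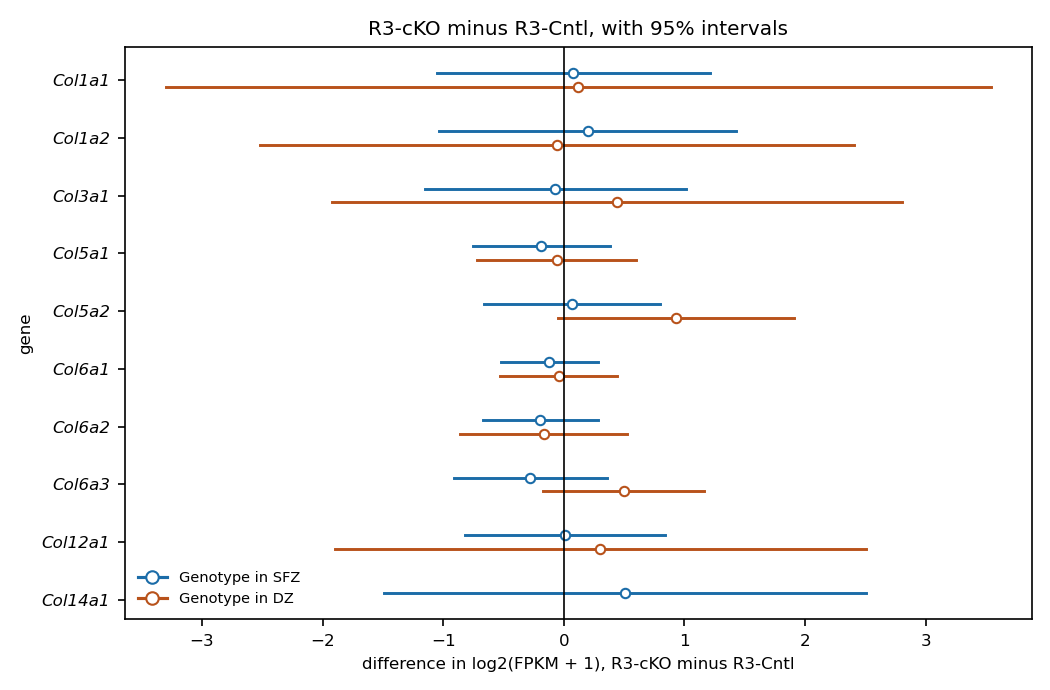
Difference between genotypes, R3-cKO minus R3-Cntl on log2(FPKM + 1), for each member in SFZ and each of the 9 tested in DZ (not Col14a1), with 95% intervals as lines. Every interval, from the fit without the replicate block, crosses 0, and the widest, for Col1a1 in DZ, runs from -3.30 to 3.54.

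The test of whether the genotype difference itself differed between zones (DZ minus SFZ) gave 0 of 10 members and 0% of 11765 genes at an adjusted p under 0.05 by limma, with 0 members and 0.841% of all genes at an unadjusted p under 0.05. The interaction was 0.86 (SE 0.55) for Col5a2, 0.78 (SE 0.41) for Col6a3 and -0.79 (SE 1.02) for Col14a1. With 1 library left out it ran from 0.38 to 1.18 for Col5a2 and from -1.33 to -0.020 for Col14a1. That the zones were apart for Col6a3 in R3-Cntl and not in R3-cKO is therefore a description of the 2 sets of libraries and not a tested difference.

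Within groups most members fell into 2 sets. After each group's mean was subtracted from log2(FPKM + 1), Pearson's r over the 12 deviations was 0.978 between Col1a1 and Col1a2, 0.962 between Col1a1 and Col3a1, 0.970 between Col1a1 and Col12a1 and 0.823 between Col1a1 and Col5a1. Col6a1 and Col6a2 had an r of 0.991 with each other, and -0.479 and -0.551 with Col1a1. Col6a3 had an r of 0.507 with Col6a1, 0.553 with Col5a2 and -0.164 with Col1a1. Col5a2 in turn had an r of 0.714 with Col12a1, 0.579 with Col5a1, 0.563 with Col1a1 and -0.0338 with Col6a1, and Col14a1 had an r of 0.624 with Col1a1. These are descriptions of 12 libraries that share preparations and values scaled within a library.

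**Figure D4:**
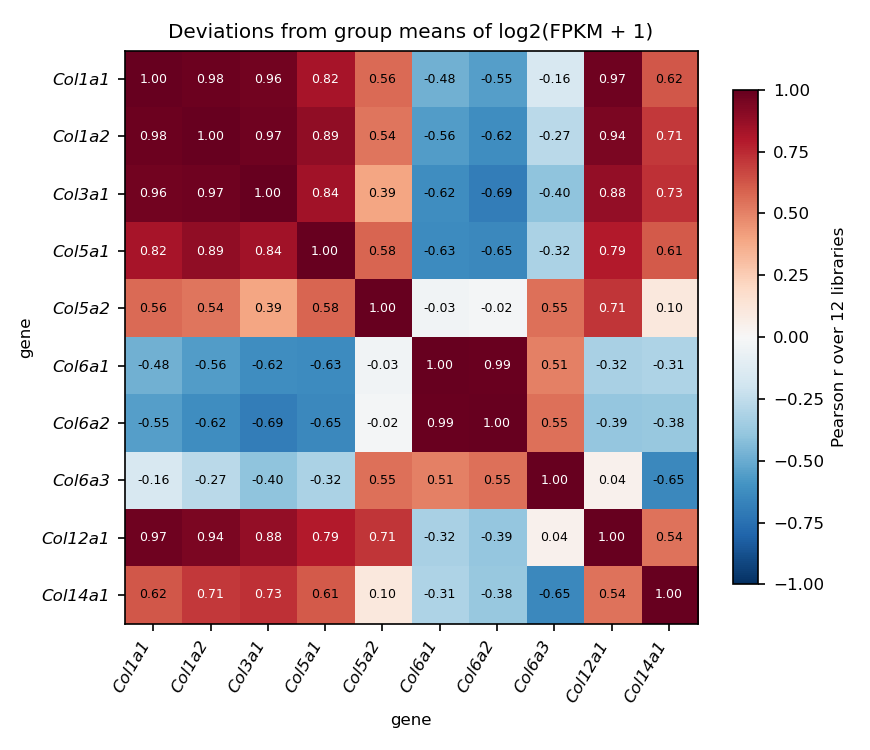
Pearson's r between members over 12 libraries, from deviations of log2(FPKM + 1) from the mean of each group, with red for positive and blue for negative values. Col1a1, Col1a2, Col3a1, Col5a1 and Col12a1 form a positive block, and Col6a1 and Col6a2 (0.991) form another that is negative towards Col3a1 (-0.692 for Col6a2).

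The genes whose profile over the 12 libraries was most like the mean standardized profile of the members, ranked among 11334 genes averaging 1 FPKM or more, were Dock1 (r = 0.989), Jcad (0.985), Mpdz (0.985), Dpysl3 (0.985), Rps6ka3 (0.982), D17Wsu92e (0.982), Zeb2 (0.982), Tmed8 (0.982), Rai14 (0.981) and Adamts5 (0.979). Most members differed between zones, so such an r reflects the difference between zones as well as the spread within them. Adamts5, which encodes an aggrecan-cleaving protease, averaged 14.3 FPKM in SFZ and 2.08 FPKM in DZ, whereas D17Wsu92e averaged 27.8 and 23.3 FPKM.

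Other collagens moved in different directions between zones. Of the other fibrillar, fibril-associated and type VI collagen genes, 5 could be tested over both genotypes, of which 2 rose in SFZ, Col5a3 by 1.42 (SE 0.27) and Col24a1 by 0.86 (SE 0.22), and 1 fell, Col27a1, at -1.28 (SE 0.27), beside 18.9% and 4.30% of all genes. Col24a1 was under the filter among DZ libraries alone and entered the test through its SFZ values. Col6a4, Col6a5, Col6a6, Col20a1, Col21a1 and Col22a1 were not tested, being under the filter or not listed. Of the 7 cartilage collagen genes none rose and 4 fell: Col9a1 (-1.66, SE 0.37), Col2a1 (-1.57, SE 0.30), Col11a2 (-1.24, SE 0.32) and Col11a1 (-1.07, SE 0.19). Their median was -1.57 beside 1.42 for the members and 0.14 for all genes. All 7 were below 0 under both other scalings, with 3 called by quantile normalization, not Col2a1 among them, and 5 by median-of-ratios scaling.

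Among 17 tested genes that process procollagen or build fibrils, 8 rose in SFZ and 1, Fn1, fell, beside 18.9% and 4.30% of all genes. Postn, a matricellular protein that binds type I collagen, rose by 5.21 (SE 0.52), Adamts2, the N-propeptidase of procollagen, by 1.97 (SE 0.29), Kera, a small leucine-rich proteoglycan, by 1.62 (SE 0.42) and Pcolce, an enhancer of C-propeptide removal, by 1.22 (SE 0.37). Postn measured 72.8, 213 and 57.3 FPKM in R3-Cntl SFZ and 63.9, 62.6 and 333 FPKM in R3-cKO SFZ libraries, with 0.63 to 6.69 FPKM in the 6 DZ libraries. R3-Cntl SFZ library 2 and R3-cKO SFZ library 3 were the highest for Postn as for Col1a1. With quantile normalization 5 of the list rose and none fell, and with median-of-ratios scaling 6 rose and 2 fell, with Pcolce called by neither. Kera and Tnxb, which both rose, were under the filter among DZ libraries alone and entered the test through their SFZ values.

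Of 11 tested collagen receptor genes 5 rose in SFZ and 1 fell, beside the same 18.9% and 4.30%. Itga11, the integrin chain for fibrillar collagen, rose by 1.93 (SE 0.47), Antxr1 by 1.15 (SE 0.38) and Itga1 by 0.94 (SE 0.25), and Ddr1, a collagen-binding tyrosine kinase, was at -0.58 (SE 0.18). With either other scaling 2 rose, Itga1 and Itga11, and 2 fell, Ddr1 and Cspg4. Between genotypes 0 genes of any of these lists passed limma's adjusted test in SFZ or DZ, and at an unadjusted p under 0.05 there were 0 in SFZ. In DZ an unadjusted p under 0.05 was reached by 2 of the other collagens and 1 cartilage collagen, all lower in R3-cKO, by 1 gene in each direction of the fibril assembly list and by 2 receptors that were higher, while 2.50% of all genes were higher and 1.15% lower by this rule.

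Markers of other cell types moved with zone alongside types I and III. All 7 tested genes of the fibroblast, perichondrium and synovial lining list rose in SFZ (6 under each other scaling), beside 18.9% of all genes as deposited. They included Cd34 (3.70, SE 0.23), Thy1 (3.49, SE 0.35), Dpt (2.80, SE 0.67) and Mfap5 (2.44, SE 0.34). Of these 7, Cd34, Dpt, Clec3b and Mfap5 were under the filter on low values among DZ libraries alone. They entered the test through their SFZ values, which partly fixed the direction of their calls. The list summed to 83.0, 218 and 164 FPKM in R3-Cntl SFZ, 103, 119 and 198 FPKM in R3-cKO SFZ, 2.36, 11.8 and 33.7 FPKM in R3-Cntl DZ and 19.8, 28.5 and 48.9 FPKM in R3-cKO DZ libraries. Its most abundant gene was Ly6a (30.0 FPKM on average), and Pi16 was below 1 FPKM in every library. Within each of the 4 groups the library highest in this sum was also highest in Col1a1. The part of such cells in the differences of the members was not tested.

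Tendon and ligament markers rose for 4 of 6 genes, Tnmd (4.95, SE 0.40), Kera (1.62, SE 0.42), Mkx (1.27, SE 0.23) and Scx (0.94, SE 0.23), under all 3 scalings, beside 18.9% of all genes as deposited. Among DZ libraries alone Tnmd and Kera were under the filter on low values. Both entered the test through their SFZ values, which partly fixed the direction of their calls. Kera and Fmod are also in the fibril assembly list, as Col2a1 and Col9a1 are in both the cartilage collagen and the chondrocyte list. The sum, mostly Fmod (802 FPKM on average), was 1131, 989 and 852 FPKM in R3-Cntl SFZ, 1268, 714 and 1455 FPKM in R3-cKO SFZ, 600.1, 504 and 972 FPKM in R3-Cntl DZ and 807, 454 and 813 FPKM in R3-cKO DZ libraries. Tnmd, a membrane protein of tendon cells, measured 14.1 to 85.6 FPKM in SFZ and 0 to 1.14 FPKM in DZ libraries. Of 5 tested osteoblast genes 1 rose, Bglap (2.26, SE 0.34), which is about the 18.9% of all genes, and Dmp1 was below 1 FPKM in every library. The osteoblast sum, led by Spp1 (405 FPKM on average), was 388, 479 and 663 FPKM in R3-Cntl SFZ, 434, 266 and 329.8 FPKM in R3-cKO SFZ, 370.3, 405 and 1051 FPKM in R3-Cntl DZ and 334, 465 and 702 FPKM in R3-cKO DZ libraries. The library highest in this sum was also highest in Col1a1 in both DZ groups and in neither SFZ group. Between genotypes 0 marker genes of any list passed limma's adjusted test, and the osteoblast list had 2 of 5 genes lower in R3-cKO at an unadjusted p under 0.05 in SFZ and 3 of 5 in DZ, against 0.113% and 1.15% of all genes. By this rule Ly6a of the fibroblast list (2.24, SE 0.76) and Acta2 of the smooth muscle list (1.76, SE 0.48) were higher in R3-cKO in DZ, where 1 chondrocyte and 1 macrophage gene were lower, and 1 superficial zone gene was lower in SFZ. The part of tendon and bone cells in the members' levels was not tested.

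The chondrocyte list went the other way: 8 of 8 genes fell in SFZ (7 with quantile normalization, where Col2a1 did not pass), beside 4.30% of all genes as deposited. Among them were Matn1 (-2.22, SE 0.61) and Acan (-2.11, SE 0.42). It summed, mostly through Col2a1 (11229.8 FPKM on average), to 14066, 4539 and 8934 FPKM in R3-Cntl SFZ, 12247, 7122 and 5214 FPKM in R3-cKO SFZ, 33492, 20789.6 and 26973 FPKM in R3-Cntl DZ and 22479, 14848 and 26963 FPKM in R3-cKO DZ libraries. R3-Cntl SFZ library 2 and R3-cKO SFZ library 3, the highest for Col1a1, were the lowest of the 12 here. Of 6 superficial zone markers 3 rose, Thbs4 (5.36, SE 0.34), Creb5 (0.998, SE 0.18) and Tspan15 (0.98, SE 0.18), beside 18.9% of all genes. The sum, led by Thbs4 (34.0 FPKM on average), was 57.3 to 120.2 FPKM in SFZ and 10.6 to 18.5 FPKM in DZ libraries. These 3 genes were under the filter among DZ libraries alone and entered the test through their SFZ values, which partly fixed their direction. Prg4, Erg and Gdf5 were not called higher over both genotypes. Within R3-Cntl alone Prg4 rose by 2.36 (SE 0.38, limma adjusted p = 0.0485), beside 1.09% of all genes, and passed under neither other scaling. Gdf5 of this list fell under both other scalings.

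**Figure D5:**
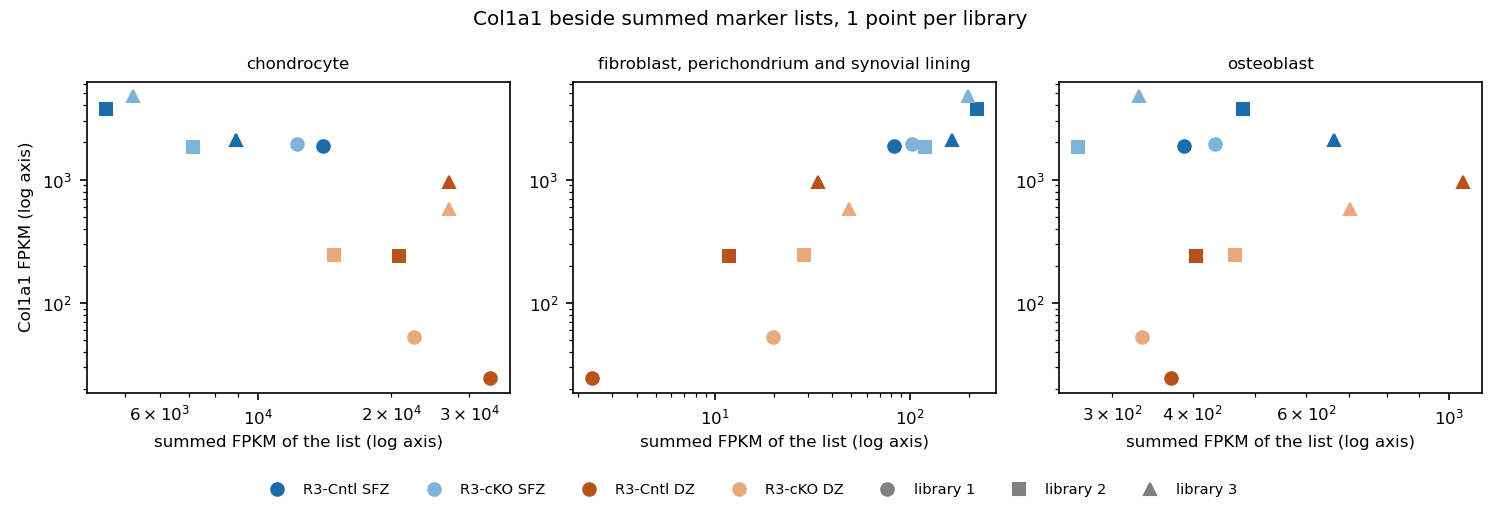
Col1a1 against the summed FPKM of the chondrocyte, fibroblast and osteoblast marker lists on log axes, with 1 point per library, colours for groups and shapes for library number. SFZ libraries lie at 83.0 to 218 FPKM of the fibroblast list and DZ libraries at 2.36 to 48.9 FPKM, while the osteoblast sums of the zones overlap, at 266 to 663 FPKM and 334 to 1051 FPKM.

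All 5 tested macrophage genes rose in SFZ (2 with quantile normalization and 3 with median-of-ratios scaling), beside 18.9% of all genes as deposited. They were led by Lyz2 (2.66, SE 0.82), which passed under neither other scaling, and Ptprc was below 1 FPKM in every library. Csf1r, Adgre1 and Cd14 were below 1 FPKM in every DZ library and entered the test through their SFZ values, so a rise was partly fixed by the filter. The macrophage sum was 157, 127 and 6.90 FPKM in R3-Cntl SFZ, 122, 13.7 and 56.4 FPKM in R3-cKO SFZ and 3.71 to 20.4 FPKM in DZ libraries. Endothelial genes were too low to test, with sums of 0.59 to 6.03 FPKM in SFZ and 0.11 to 0.41 FPKM in DZ, and Kdr, Tek and Esam below 1 FPKM in every library. Pecam1 was the most abundant of them, at 0.352 FPKM on average. Of 4 tested smooth muscle and pericyte genes 2 rose, beside 18.9% of all genes, Pdgfrb (1.08, SE 0.18) and Notch3 (0.70, SE 0.16), the latter under the filter among DZ libraries alone. That sum, mostly Acta2 (205 FPKM on average), was 128 to 468 FPKM in SFZ libraries. DZ sums came to 79.7, 176 and 108 FPKM for controls, with 334, 435 and 196 for R3-cKO, so that the genotypes did not overlap. Among skeletal muscle genes 0 of 2 tested passed limma's adjusted test, and 0 had an unadjusted p under 0.05. Ttn was below 1 FPKM in every library, and the sum, led by Acta1 (6.48 FPKM on average), was 1.34 to 12.7 FPKM except in R3-Cntl SFZ library 2, at 102 FPKM. The part of these cells in the members' differences was not tested.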

How the data were processed

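RNA of 12 libraries was sequenced as paired-end reads per the study's methods, and the submitters' processing notes name Bowtie 0.12.2 and the mm9 build. The values deposited by the authors were read as FPKM scaled between libraries by TMM; this unit was inferred from the name and totals of the table, while the methods name quantile normalization and log2 CPM. The smallest value above 0 was 0.01. R 4.3.3 with limma 3.58.1 was fitted to log2(FPKM + 1) with a mean-variance trend, keeping genes that reached 1 FPKM in 3 or more libraries of a comparison. P-values were adjusted by Benjamini-Hochberg over all genes tested, with a threshold of 0.05, and the fit was tested on simulated data. Python 3.11.15, pandas 2.3.3 and NumPy 2.4.6 made the summaries. Alternatives changed the filter, pseudocount, scaling, blocking and libraries. Library numbers were taken as pairing where every same-numbered pair of deviations from group means correlated over 0.1: across 11359 genes this was 0.418, 0.781 and 0.653 between zones in R3-cKO, and 0.653, 0.781 and 0.687 between genotypes in DZ. The members and lists were chosen with earlier results of these data known. Named genes of a list were the 4 largest changes that passed.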

Additional observations from a re-analysis of the deposited data

How the results depend on the processing

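Over both genotypes Col1a1, Col1a2, Col3a1, Col5a1 and Col14a1 passed the limma test in 19 of 19 alternatives, Col12a1 in 9, Col6a1 and Col6a2 in 8, and Col5a2 and Col6a3 in 0. Col5a2 was 0.31 without R3-Cntl DZ library 1, Col6a3 0.22 with median-of-ratios scaling and Col14a1 2.08 with a pseudocount of 5. Members called numbered 5 without the filter, with quantile normalization and with median-of-ratios scaling, and 5 to 8 with 1 library left out. Genes called numbered 1162 for means of 10 FPKM or more, where fewer genes were tested, and 1624 (without R3-Cntl SFZ library 2) to 2899 with 1 library left out.

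For the zones in R3-Cntl, genes called numbered 0 without the filter, 8 for means of 10 FPKM or more, 88 and 29 with pseudocounts of 0.1 and 5, 1 with quantile normalization, 17 with median-of-ratios scaling and 0 to 505 with 1 library left out, where members called numbered 0. In 1 model of all 12 libraries there were 798 genes and 2 members, Col5a1 and Col14a1. The lowest Col14a1 difference over the alternatives in R3-Cntl was 1.82. Same-numbered libraries did not pair there (correlations 0.575, 0.111 and -0.151), and the replicate block gave 831 genes and 3 members, Col5a1, Col5a2 and Col6a2. R3-Cntl SFZ library 3 correlated at 0.580 with R3-Cntl DZ library 2, and R3-Cntl SFZ library 2 at 0.380 with R3-Cntl DZ library 3. The numbering of R3-Cntl SFZ may thus differ from that of the other groups, which was not tested. Between genotypes in SFZ same-numbered libraries did not pair either (0.787, -0.0944 and -0.415). There R3-Cntl library 3 correlated at 0.688 with R3-cKO library 2, and R3-Cntl library 2 at 0.449 with R3-cKO library 3.

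For the zones in R3-cKO, genes called numbered 7 without the filter, 0 for means of 10 FPKM or more, 1 with either pseudocount, 165 in 1 model of all 12 libraries (1 member, Col14a1) and 0 to 5 with 1 library left out. The replicate block gave 352 genes and 5 members, and between genotypes and for the interaction it changed no call at the adjusted threshold. Col6a3 ran from -0.26 to 0.17 with 1 library left out, and the lowest Col14a1 difference over the alternatives was 2.34.

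Several genotype differences, none of which passed the test, changed sign, whereas Col5a2 and Col6a3 in DZ did so in no alternative. In SFZ with quantile normalization Col1a1 was -0.30, Col1a2 -0.048 and Col12a1 -0.018. With 1 library left out, Col1a1 ran from -0.37 to 0.38, Col1a2 from -0.32 to 0.49, Col3a1 from -0.51 to 0.26, Col5a2 from -0.25 to 0.28, Col12a1 from -0.24 to 0.28 and Col14a1 from -0.26 to 1.05, and with no change of sign Col5a1 ran from -0.36 to -0.025 and Col6a2 from -0.33 to -0.067. In DZ Col6a1 was 0.058 with quantile normalization. With 1 library left out there, Col1a1 ran from -1.30 to 1.32, Col1a2 from -1.06 to 0.90, Col3a1 from -0.37 to 1.19, Col5a1 from -0.31 to 0.20, Col6a1 from -0.18 to 0.16, Col6a2 from -0.36 to 0.16 and Col12a1 from -0.70 to 1.11. The interaction with median-of-ratios scaling was -0.022 for Col1a1 and -0.036 for Col6a2. Its values with 1 library left out ran from -1.38 to 1.25 for Col1a1, -1.25 to 0.70 for Col1a2, -0.30 to 1.26 for Col3a1, -0.12 to 0.39 for Col5a1, -0.062 to 0.28 for Col6a1, -0.17 to 0.35 for Col6a2 and -0.71 to 1.10 for Col12a1. The cause of these changes was not tested, and depth is unknown.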
